A study of Mus musculus with 2 samples.

Results

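Among the 59709 probes of the 2 lung arrays that are not control or negative probes, 316 carry the name of a single transcript and the suffix of one custom probe set, and these were selected by that suffix alone. They are the individually named custom probes. Male BALB/c mice, 8 weeks old, received 5 daily intraperitoneal injections of either paraquat at 10 mg/kg or, as the control, saline of the same volume. Paraquat is a herbicide that cycles between redox states and injures the lung, where the injury can go on to fibrosis. RNA of the lower lobe of the right lung, taken on day 12 and mixed from 3 lungs, was hybridised to 1 single-colour Agilent lncRNA array per group. With 1 array per group there was no test, and a difference describes these 2 pools. In such bulk RNA, fewer cells of a type and less RNA per cell cannot be told apart.

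The working name of the set is a list of long non-coding RNAs (lncRNAs), transcripts that are not translated into protein, of which some regulate genes and many have no known role. For the members with a protein-coding RefSeq name, the names on the probes did not bear this out. Members named by UCSC, Ensembl or GenBank were not checked for coding status. Of the 316 members, 103 bore a RefSeq accession of the protein-coding NM type and 5 one of the non-coding NR type, while 51 were named by a UCSC transcript, 76 by an Ensembl transcript and 81 by a GenBank sequence. In the RefSeq gene table of GRCm38.p6, 101 of the 108 accessions were found, giving 97 symbols. The table lists 98 of these members as protein-coding, 2 as lncRNA and 1 as a transcribed pseudogene. None of the 103 NM members was in the authors' processed values, which cover 120 of the 316. The other 215 members have no gene name here and are called by the identifier on the probe.

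The named genes had a narrow make-up. The Y chromosome held 23 members, chromosome 7 held 14 (13 of them vomeronasal receptors) and the X chromosome held 11. Many sat side by side: of 95 placed genes, 56 lay in 19 runs in which neighbours were at most 3 protein-coding genes apart. One run on chromosome 1 reads Disp1, Brox, Aida, Mia3, Taf1a, Hhipl2. One on chromosome 13 reads Ccl28, Hmgcs1, Nim1k, Zfp131, AF067063, Tcstv1, B020031M17Rik. No member was a lung cell-type marker, so the labelled tissue could not be checked on these probes.

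The long arm of the mouse Y chromosome is filled with families of near-identical genes, such as Sly and Ssty, that are known for their expression in spermatids of the testis. Vomeronasal type 1 receptors are pheromone receptors of sensory neurons and also form large families of close copies. Whether a probe against one copy also binds transcripts of others was not tested, and the signals of such families are uncertain as to the copy.

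RefSeq promoters (GRCm38.p6), from 250 bases before to 50 after the start of the gene, were at hand for 75 of the 97 genes and for 20 of the 23 Y-linked genes. They are shown because they make the sharing visible: 22 pairs of member promoters were at least 80% identical base for base. The first group belongs to Y-linked genes. Gm20816 is at chrY:68537705-68538004 on the plus strand, and its sequence also stands for Gm20867, which differed from it at 0 of 300 bases. Gm20815, at chrY:8835120-8835419 on the minus strand, differed from it at 5 bases, set in capitals. Ssty2 is at chrY:67048023-67048322 on the minus strand and Ssty1 at chrY:18088917-18089216 on the plus strand. In Gm20816, Ssty2 and Ssty1 the capitals mark a match to TGANGTCA.
Gm20816: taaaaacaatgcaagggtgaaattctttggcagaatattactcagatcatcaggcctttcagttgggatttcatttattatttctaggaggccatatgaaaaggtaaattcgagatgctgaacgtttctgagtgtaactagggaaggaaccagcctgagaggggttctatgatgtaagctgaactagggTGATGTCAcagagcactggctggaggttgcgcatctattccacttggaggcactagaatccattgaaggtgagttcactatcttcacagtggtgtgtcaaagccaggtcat
Gm20815: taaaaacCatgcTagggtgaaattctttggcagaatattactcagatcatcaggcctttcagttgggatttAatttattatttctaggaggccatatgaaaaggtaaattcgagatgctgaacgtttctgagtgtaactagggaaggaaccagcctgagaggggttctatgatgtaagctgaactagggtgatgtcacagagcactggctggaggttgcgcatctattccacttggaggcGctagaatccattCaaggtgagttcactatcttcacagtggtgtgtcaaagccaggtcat
Ssty2: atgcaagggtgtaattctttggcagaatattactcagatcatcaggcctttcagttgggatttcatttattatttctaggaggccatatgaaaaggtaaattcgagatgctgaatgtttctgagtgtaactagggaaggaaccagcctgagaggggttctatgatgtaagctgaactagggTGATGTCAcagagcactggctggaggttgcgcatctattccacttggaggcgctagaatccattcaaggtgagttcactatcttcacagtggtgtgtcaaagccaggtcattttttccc
Ssty1: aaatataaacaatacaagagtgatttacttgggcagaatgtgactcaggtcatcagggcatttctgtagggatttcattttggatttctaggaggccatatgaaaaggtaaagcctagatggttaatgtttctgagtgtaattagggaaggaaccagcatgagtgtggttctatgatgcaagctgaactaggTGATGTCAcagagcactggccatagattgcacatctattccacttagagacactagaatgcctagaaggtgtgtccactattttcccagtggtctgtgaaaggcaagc

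A second Y-linked group has another promoter. Gm20917 is at chrY:79149738-79150037 on the minus strand, with a match to TATAAA, read on the other strand as TTTATA, in capitals. TATAAA also occurs on the printed strand, overlapping the stretch in capitals. Gm20806, at chrY:78836670-78836969 on the minus strand, differed from it at 3 bases, and Gm20809, at chrY:24456155-24456454 on the plus strand, at 8 bases, all in capitals.
Gm20917: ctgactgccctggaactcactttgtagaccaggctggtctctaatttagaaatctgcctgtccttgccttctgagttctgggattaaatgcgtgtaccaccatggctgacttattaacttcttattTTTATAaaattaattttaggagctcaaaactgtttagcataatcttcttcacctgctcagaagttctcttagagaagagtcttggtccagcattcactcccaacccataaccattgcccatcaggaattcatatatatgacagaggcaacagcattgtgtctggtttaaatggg
Gm20806: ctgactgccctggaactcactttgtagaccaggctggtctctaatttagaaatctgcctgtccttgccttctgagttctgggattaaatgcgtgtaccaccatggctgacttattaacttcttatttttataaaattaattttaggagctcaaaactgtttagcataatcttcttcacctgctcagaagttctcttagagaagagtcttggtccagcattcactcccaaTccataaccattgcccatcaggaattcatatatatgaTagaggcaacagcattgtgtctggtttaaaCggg
Gm20809: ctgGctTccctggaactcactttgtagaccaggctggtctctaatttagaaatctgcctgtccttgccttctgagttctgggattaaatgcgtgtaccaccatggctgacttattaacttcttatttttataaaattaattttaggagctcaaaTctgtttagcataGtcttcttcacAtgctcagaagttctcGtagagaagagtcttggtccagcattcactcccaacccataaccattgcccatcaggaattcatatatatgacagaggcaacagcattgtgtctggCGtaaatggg

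The vomeronasal promoters are shown because receptors with the same promoter gave unlike differences. Vmn1r111 is at chr7:20703167-20703466 on the minus strand, and its sequence is also that of Vmn1r257. Vmn1r135, at chr7:21832101-21832400 on the plus strand, differed from it at 22 bases, in capitals.
Vmn1r111: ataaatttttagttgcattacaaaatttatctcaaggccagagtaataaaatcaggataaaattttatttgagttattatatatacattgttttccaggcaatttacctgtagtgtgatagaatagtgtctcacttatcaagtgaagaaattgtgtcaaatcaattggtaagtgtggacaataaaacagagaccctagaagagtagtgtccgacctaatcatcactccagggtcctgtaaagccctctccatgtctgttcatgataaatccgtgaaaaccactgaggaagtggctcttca
Vmn1r135: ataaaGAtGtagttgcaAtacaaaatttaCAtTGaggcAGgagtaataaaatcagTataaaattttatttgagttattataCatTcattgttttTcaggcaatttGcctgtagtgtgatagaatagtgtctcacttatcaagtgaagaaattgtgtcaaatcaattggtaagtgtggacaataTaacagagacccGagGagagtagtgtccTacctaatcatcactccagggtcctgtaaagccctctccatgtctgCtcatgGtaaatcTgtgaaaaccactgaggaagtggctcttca

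Motifs were counted on both strands in these windows. TGANGTCA, read as TGACNTCA on the other strand, was in 11 of the 20 Y-linked promoters and in 8.97% of all 27025 promoters. The motif was picked after the Y-linked sequences had been seen, and near-identical copies are not independent, so the count is a description. TATAAA, which reads TTTATA on the other strand, was in 8 of 20 against 14.2%. CCAAT, which reads ATTGG there, was in 2 of 20 against 37.9%, and GGGCGG, which reads CCGCCC there, in 1 of 20 against 35.9%. TGACGTCA, which is its own reverse and is one form of TGANGTCA, was in 0 of 20 against 1.88%.

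One outlier spot was left out, which left 315 measured members. A member counts as detected where its spot was well above the local background. On this measure 194 members were detected on both arrays, 38 on the paraquat array only, 13 on the control array only and 70 on neither. Detection on paraquat only thus covered 12.1% of the members against 4.47% of all probes, and detection on control only 4.13% against 8.61%. Of 108 members not detected on the control array, 35.2% were detected on the paraquat array, against 12.0% of all such probes. Detected probes reached down to a signal of 19.4 for the control and 13.2 for paraquat, and no member spot was saturated.

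Differences are log2 values of the paraquat array minus the control array after quantile normalization. For 245 members a signal was detected on 1 array or both, and 47 of them (19.2%) had at least a 5-fold higher value with paraquat, against 5.54% of all probes, and 6 (2.45%) at least a 5-fold lower one, against 4.56%. A member detected on 1 array only passes that filter through the array where it is bright, so it had to differ. When the dim signal was raised to the lowest detected signal, 36 were higher and 2 lower. The share of all probes was not counted with dim signals raised. Restricting the count to the 194 members measured on both left 15 that were 5-fold higher or more, against a background of 2.77%, and 2 that were lower, against 1.78%. At 2-fold, 57 were higher, against 15.2%, and 15 lower, against 13.6%. Their median log2 difference was 0.44, where that of all probes detected on both arrays was -0.04. Without the Y-linked members it was 0.37, with 30 of 225 at least 5-fold higher.

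**Figure D1:**
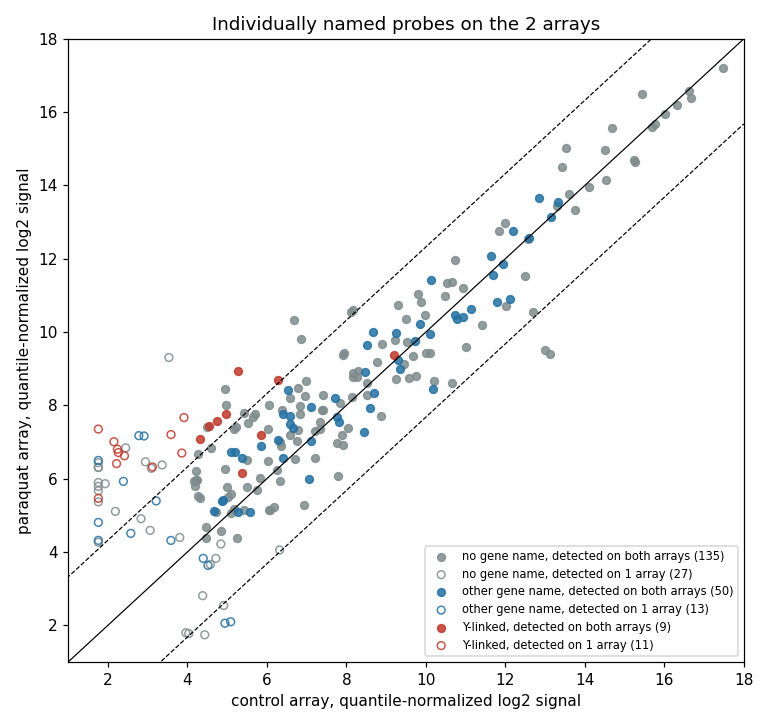
Quantile-normalized log2 signal of each member on the control array (x axis) and the paraquat array (y axis), for members detected on at least 1 array. The solid line marks equal signals and the dashed lines 5-fold. Filled points were detected on both arrays, open points on 1, and the Y-linked members (red) lie almost all above the upper dashed line at low signal.

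Facts of the whole arrays that touch these counts were as follows. Both arrays came from 1 scan. Before normalization the median log2 signal was 5.43 for the control and 4.60 for paraquat, so dim and mid-range members whose raw signals were equal have a positive normalized difference. For each of 15 reference genes, the SD over its repeated spots was taken within each array. The SDs of both arrays were then combined as the root of their summed squares. This combined SD had a median of 0.22 on the log2 scale, from 0.16 for the steadiest gene to 1.45 for the dimmest. It describes the spread of spots within an array, not a difference between the arrays or the pools. Differences between the arrays varied across the array, whose spots lie in 164 columns. In columns 1 to 64, 10.3% of all detected probes were at least 5-fold higher, and in columns above 80 only 2.58%. For the members the shares were 20.4% in columns 1 to 64 and 20.5% in columns above 80. At least 5-fold lower were 4 of 93 detected members in columns 1 to 64, against 4.55% of all probes there, and 0 of 122 above 80, against 4.42%.

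Of the 23 Y-linked members, 9 were detected on both arrays, 11 on the paraquat array only, none on the control array only and 3 on neither. With paraquat, 6 of the 9 measured on both arrays passed 5-fold upward, against 2.77% of all such probes. Of the 20 detected on 1 array or both, 17 passed it, against 5.54%, and 16 with dim signals raised to the lowest detected signal, but 11 of the 20 entered through the paraquat array alone and had to differ. All 20 had a positive difference. Of 14 not detected on the control array, 11 (78.6%) were detected after paraquat, against 12.0% of all such probes. Both groups of mice were male. The gene class was formed with values of these arrays known, and no test was made on it.

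Signals below are those of the single spot, with the spot error of the scanner software as ±. An "at least" value is a bound within quantile normalization, with the dim signal raised to the lowest detected signal. It does not hold under every setting tried: the smallest log2 differences were 2.00 for Sly and 1.33 for Ssty2. Other Y-linked genes with a bound fell further, Gm20816 to 1.31, Gm20867 to 1.30, Gm21943 to 1.29, Gm20822 to 0.93 and Gm20865 to 0.78. For Gm20822 and Gm20865 that is under 2-fold. Sly, a regulator of sex-linked genes in spermatids, was at 3.86 ± 3.87 on the control array, not well above background, and at 119 ± 12.2 on the paraquat array, at least 10.8-fold higher. Ssty1, a spermiogenesis gene of the long arm, was at 35.2 ± 5.23 and 139 ± 14.1, a log2 difference of 2.85. Ssty2, its relative, was at 5.67 ± 3.91 and 81.3 ± 8.81, at least 7.39-fold higher. All 3 were clear of the detection limit on the paraquat array, and on the control array only Ssty1 was.

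Gm20747, a predicted gene, had the largest difference of the 194 members measured on both arrays. It went from 51.8 ± 6.46 to 367 ± 36.9, a log2 difference of 3.67. Gm20823 went from 106.9 ± 11.4 to 306 ± 30.8, a difference of 2.41. For these dim probes the normalized difference is larger than the raw one, since quantile normalization raised dim signals of the paraquat array relative to those of the control.

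In the group with the Gm20917 promoter, Gm20806 went from 30.7 ± 4.94 to 126 ± 12.9 (2.89) and Gm20854, which differed from Gm20917 at 3 promoter bases, from 41.4 ± 5.67 to 158 ± 16.1 (2.80). Gm20917 was at 5.79 ± 3.91 and 76.4 ± 8.11, at least 6.94-fold higher. Gm20809 was at 19.3 ± 4.32, just under the detection limit, and at 147 ± 15.0, at least 13.4-fold higher. All 4 were higher on the paraquat array.

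In the group with the Gm20816 promoter the copies were not alike. Gm20816 was at 6.57 ± 3.93 and 71.8 ± 7.73, at least 6.53-fold higher, and Gm20867 at 5.55 ± 3.91 and 62.3 ± 6.84, at least 5.63-fold higher. Gm20815, in contrast, was at 4.29 ± 3.89 and 11.3 ± 3.20 and was not detected on either array. The spot of Gm20815 lay in column 4 and those of Gm20816 and Gm20867 in columns 151 and 139.

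Of the other predicted Y genes, Gm20877 went from 25.98 ± 4.66 to 97.3 ± 10.1, a difference of 2.75. Gm20826 (5.21 ± 3.91 and 93.3 ± 9.85), Gm20852 (15.2 ± 4.16 and 106.9 ± 11.2) and Gm21943 (18.6 ± 4.29 and 75.7 ± 8.04) were detected on the paraquat array only, at least 8.52-fold, 9.75-fold and 6.88-fold higher. Gm20822 (10.96 ± 4.02 and 58.4 ± 6.56) was at least 5.29-fold higher. Gm20865 (3.86 ± 3.87 and 32.8 ± 4.57) had the smallest bound, at least 2.92-fold, and is the Y gene that lost its 5-fold call when the dim signal was raised.

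The other Y-linked genes were under 5-fold or not detected. Gm20831 was at 79.2 ± 8.81 and 106 ± 10.9, a difference of 1.32, past 2-fold. H2al2b, a histone H2A variant of spermatids, was at 55.9 ± 6.80 and 51.8 ± 5.99, a difference of 0.77. Gm20738, a predicted gene, was at 783 ± 78.4 and 502 ± 50.3, a difference of 0.18. For H2al2b and Gm20738 the raw signal was lower on the paraquat array, so without normalization their differences were negative. Gm20736 (3.86 ± 3.87 and 5.89 ± 2.82) and Rbm31y, which encodes an RNA-binding motif protein (3.86 ± 3.87 and 3.31 ± 3.32), were detected on neither array.

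**Figure D2:**
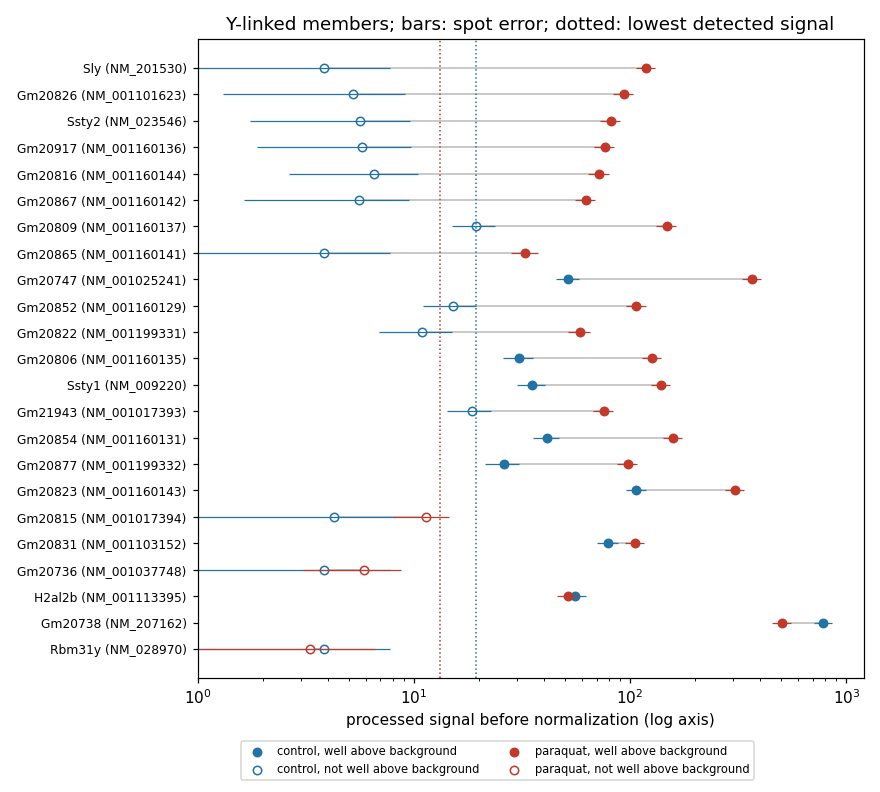
Processed signal (x axis, log scale, before normalization) of the 23 Y-linked members on the control array (blue) and the paraquat array (red), with the spot error as bars. Filled points were well above background, and the dotted lines mark the lowest detected signal of each array, 19.4 and 13.2. On the control array 14 of 23 points are open, on the paraquat array 3.

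By position, 5 of 6 detected Y-linked members in columns 1 to 64 were at least 5-fold higher, against 10.3% of all probes there, but 4 of these 6 were detected on the paraquat array only. The 2 measured on both arrays there were H2al2b (0.77) and Gm20823 (2.41), of which 1 passed 5-fold. In columns above 80 it was 11 of 13, against 2.58%, and 5 of the 7 measured on both arrays. Of those not detected on the control array, 4 of 5 in columns 1 to 64 were detected after paraquat, against 16.2% of all such probes, and 6 of 8 in columns above 80, against 7.56%. With the median difference of nearby probes of like signal subtracted, 16 of 20 were at least 5-fold higher. This count again includes members that entered through the paraquat array alone, and the subtraction does not undo that selection. For the 9 measured on both arrays, the median difference went from 2.75 to 2.64 with the subtraction. The size of the differences did depend on the background correction: with the normexp method and an offset of 50, 1 of 20 was at least 5-fold higher and the median of the 9 detected on both arrays went from 2.75 to 1.52, and without background subtraction 2 of 20 were. All 20 differences remained positive under both. The share of all probes at least 5-fold higher was not counted under these background corrections or with the local median subtracted.

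**Figure D3:**
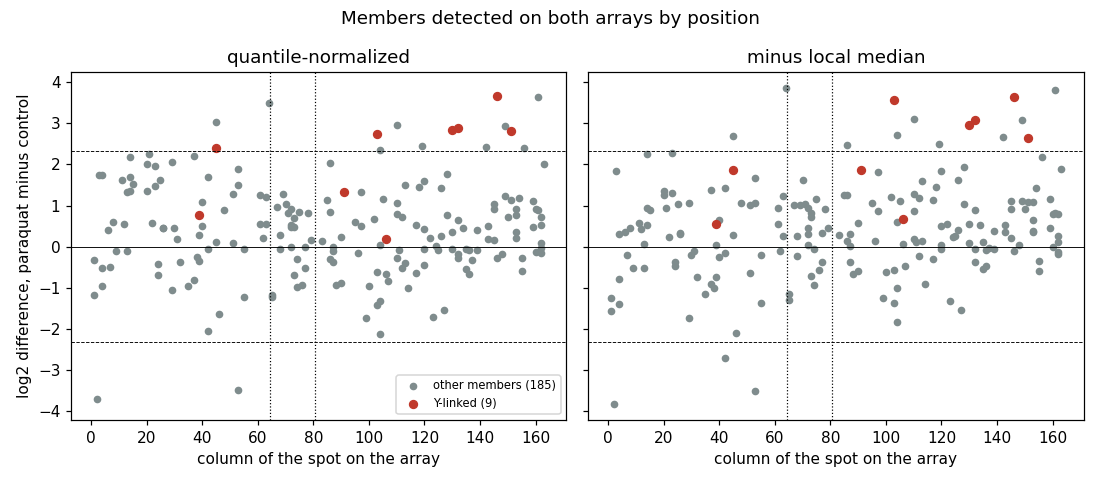
Log2 difference (y axis) against the column of the spot on the array (x axis) for the 194 members detected on both arrays, after quantile normalization (left) and after subtraction of the local median difference (right). Dashed lines mark 5-fold and dotted lines the column limits 64 and 80. The high Y-linked members (red) lie mostly in columns above 80 and stay high after the subtraction.

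Of the 13 vomeronasal receptors, 4 (30.8%) were detected on both arrays, against 54.1% of all probes, and 4 (30.8%) on the paraquat array only, against 4.47%. A further 1 (7.69%) was detected on the control array only, against 8.61%, and 4 on neither. Vmn1r111 was at 131 ± 13.6 and 130 ± 13.5, a log2 difference of 0.91 after normalization. Vmn1r257, with the same promoter sequence, was at 9.37 ± 3.98 and 104 ± 10.8, at least 9.50-fold higher. Vmn1r135 was at 8.48 ± 3.96 and 105 ± 10.9, at least 9.56-fold higher. Vmn1r111 was thus measured on both arrays, and Vmn1r257 and Vmn1r135 only after paraquat.

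Vmn1r157, whose promoter differed from that of Vmn1r111 at 29 bases, was also measured on both arrays, with 138 ± 14.4 and 121 ± 12.4 (0.72). The other receptors measured on both arrays were Vmn1r62, with a log2 difference of -0.18, and Vmn1r241, with 1.04. Vmn1r259 was at 3.86 ± 3.87 and 66.1 ± 7.55, at least 5.98-fold higher, and Vmn1r243 at 6.44 ± 3.92 and 44.7 ± 5.26, at least 4.03-fold higher. The spots of Vmn1r135, Vmn1r257 and Vmn1r259 lay in columns 10, 14 and 41, on the side where more of all probes were higher, and that of Vmn1r243 in column 109. These receptors passed the filter through the paraquat array alone and so had to differ. Their control signals were not well above background, and subtracting the local median does not change that. How much of their differences goes with the position on the array was therefore not tested. With the local median subtracted, their differences as measured were 3.29 for Vmn1r135, 3.21 for Vmn1r257, 3.91 for Vmn1r259 and 3.67 for Vmn1r243. Over all settings tried, their smallest differences were 1.60, 1.61, 1.21 and 0.94 in the same order, so that of Vmn1r243 fell below 2-fold. The remaining member detected on 1 array was Gm10665, at 30.03 ± 4.90 for the control and 9.76 ± 3.18 for paraquat, at least 1.35-fold lower.

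Of the 4 chemokine probes, those of the Ccl21 genes were lower on the paraquat array under every setting tried. Ccl21 and its copies are ligands of CCR7 that guide dendritic cells and T cells along lymphatic vessels, and Ccl28 is a chemokine of mucosal epithelia. Ccl21c was at 5136 ± 514 and 1551 ± 155, a log2 difference of -1.23. Gm13304, a further gene of the Ccl21 cluster, was at 4166 ± 417 and 1473 ± 147 (-0.97). Ccl21b was at 2756 ± 276 and 1262 ± 126 (-0.52), and Ccl28 at 191 ± 19.5 and 94.6 ± 9.82 (-0.08). The median of the 4 was -0.75, and only Ccl21c passed 2-fold. The sign of Ccl28 was not stable: it was 0.05 with normexp and without background subtraction and 0.27 with the local median subtracted, while under the last the Ccl21 probes stayed between -1.16 and -0.79. The Ccl21 genes are close copies, and whether their probes measure them separately was not tested.

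Of the 7 genes of the early embryo and germ line, 3 were detected on both arrays. Tcstv1 and Tcstv3, which mark a state of the embryo at the cleavage stage, were at 302 ± 30.4 and 150 ± 15.2 (-0.08) and at 64.8 ± 7.55 and 25.5 ± 4.05 (-0.50). Nlrp4g, of the NLR family, was at 524 ± 52.6 and 179 ± 18.2 (-0.65). None of these 3 passed 2-fold. Pramel39 was detected on the paraquat array only, at 31.3 ± 4.21 against 11.8 ± 4.05, at least 2.78-fold higher. Obox2, an oocyte homeobox gene, Tdpoz5 and Pramel37 were detected on neither array.

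Of the 3 histone H2A genes, which encode a core protein of the nucleosome, 2 were detected. H2ac18 was at 8178 ± 818 and 12119 ± 1212, a difference of 0.83, and H2ac19, its neighbour on chromosome 3, at 11137 ± 1114 and 11082 ± 1108, a difference of 0.22. H2ac23 was detected on neither array. The H2A genes encode nearly the same protein, and whether a probe measures 1 gene alone was not tested.

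Of the 11 X-linked members, 7 were detected on both arrays. Zf12, a non-coding entry, was the only one that passed 2-fold downward, from 1474 ± 147 to 254 ± 25.5 (-1.74). Gm14819 (45.8 ± 5.997 and 76.7 ± 8.36) and Gm10147 (55.5 ± 6.76 and 68.8 ± 7.46), whose promoters were identical, had differences of 1.62 and 1.19. Gm10488 was at 49.2 ± 6.26 and 76.6 ± 8.29 (1.52). These 3 passed 2-fold upward among the 7 measured on both arrays. Gm10487 was detected on the paraquat array only, at 7.38 ± 3.94 and 17.3 ± 3.48, at least 1.51-fold higher. Vamp7, a SNARE protein of vesicle fusion, was at 2386 ± 239 and 1086 ± 109 (-0.52), and its neighbour Tmlhe, an enzyme of carnitine synthesis, at 480 ± 48.2 and 356 ± 35.7 (0.44).

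**Figure D4:**
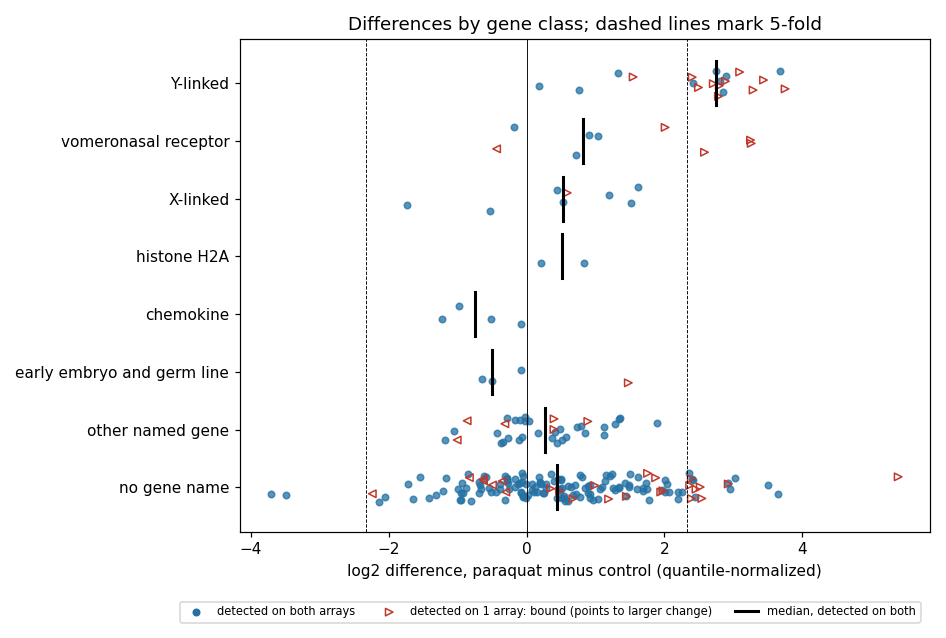
Log2 difference, paraquat minus control after quantile normalization (x axis), of members detected on both arrays (points) and the bound of members detected on 1 array (triangles), by gene class. Bars are medians over the points and dashed lines mark 5-fold. The Y-linked class has its median at 2.75 and the chemokines theirs at -0.75.

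The other 40 named members, which were given no class, had a median of 0.27 over 30 detected on both arrays, with 6 (20.0%) at least 2-fold higher, against 15.2% of all such probes, and 2 (6.67%) lower, against 13.6%. Hmgcs1, an enzyme of cholesterol synthesis, was at 5359 ± 536 and 6155 ± 615 (0.57). Zfp131 was at 6950 ± 695 and 5436 ± 544 (-0.03), and Brox, of the chromosome 1 run, at 4592 ± 459 and 3190 ± 319 (-0.09). Disp1, which releases Hedgehog ligands from the cell, was at 495 ± 49.7 and 610 ± 61.1 (1.13). Taf1a, a factor of RNA polymerase I, was at 2176 ± 218 and 1044 ± 104 (-0.42). In the same run Aida (-0.07) and Hhipl2 (0.52) were also measured on both arrays.

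Mia3, also of the chromosome 1 run and a receptor that loads collagen for export from the endoplasmic reticulum, was detected on the control array only, at 40.9 ± 5.63 against 3.62 ± 3.64, at least 1.82-fold lower. BC147527 was likewise at 45.4 ± 5.97 and 3.69 ± 3.102, at least 2.01-fold lower. Amy2a5, a pancreatic amylase, was at 3.86 ± 3.87 and 21.1 ± 3.61, at least 1.85-fold higher. All 3 are near the detection limit, and their bounds are small.

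Where several members target 1 gene they give a check on the spread between probes. The 3 probes of Ppp2r3d, a regulatory subunit of protein phosphatase 2A, gave 1.35, 1.12 and 0.85. Those of Gm3286 gave 0.49 and 1.89, and those of 4930526I15Rik 1.34 and 0.73. Probes of 1 gene thus could differ by more than 1 on the log2 scale after quantile normalization. With the local median subtracted, the values in the same order were 1.25, 1.17 and 1.25 for Ppp2r3d, 0.71 and 1.68 for Gm3286, and 0.53 and 1.18 for 4930526I15Rik. How much of these gaps goes with the position on the array was not tested.

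Of the members detected on both arrays, 7 passed 2-fold downward under each of the loess, normexp, 75th percentile and quantile settings. By the same rule 35 passed 2-fold upward, and the share of all probes was not counted for this rule. Among the 7 lower members, AK087215 went from 9716 ± 972 to 517 ± 51.8, a difference of -3.70. The transcript uc008ork.1 went from 8940 ± 894 to 555 ± 55.5, a difference of -3.48. AK087215 and uc008ork.1 were the only members detected on both arrays that were at least 5-fold lower.

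AK021355 went from 7419 ± 742 to 1203 ± 120, a difference of -2.13. BC027568, the member for which the study designed quantitative PCR primers, went from 2013 ± 201 to 285 ± 28.8, a difference of -2.06, which is under 5-fold. The paper names BC027568 among the down-regulated lncRNAs that it measured by quantitative PCR with biological replicates. The primers of BC027568 are shown because they fix which transcript was followed.
forward: tccggtacatccctcttctg
reverse: taccctcgcaatgagtttcc
Across the settings tried, the difference of BC027568 lay between -2.82 and -1.90, so its direction held while the 5-fold mark was passed under some of them. The transcripts uc009shj.1 (1502 ± 150 and 300.3 ± 30.2) and uc008ict.1 (2512 ± 251 and 593 ± 59.4) had differences of -1.54 and -1.41.

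On the side of higher values, AK040022 went from 142 ± 14.7 to 1023 ± 102, a difference of 3.65, and AK020382 from 40.7 ± 5.61 to 254 ± 25.6, a difference of 3.50. AK145240 went from 159 ± 16.4 to 696 ± 69.6 (2.96). AK084660 went from 391 ± 39.3 to 1249 ± 125 (2.45) and AK155224 from 381 ± 38.3 to 1182 ± 118 (2.41). The Ensembl transcripts ENSMUST00000121460 (41.9 ± 5.71 and 188 ± 19.1) and ENSMUST00000105535 (29.3 ± 4.86 and 123 ± 12.7) had differences of 3.03 and 2.93. The remaining 5 of the 12 members furthest on this side were the Y-linked Gm20747, Gm20806, Ssty1, Gm20854 and Gm20877.

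**Figure D5:**
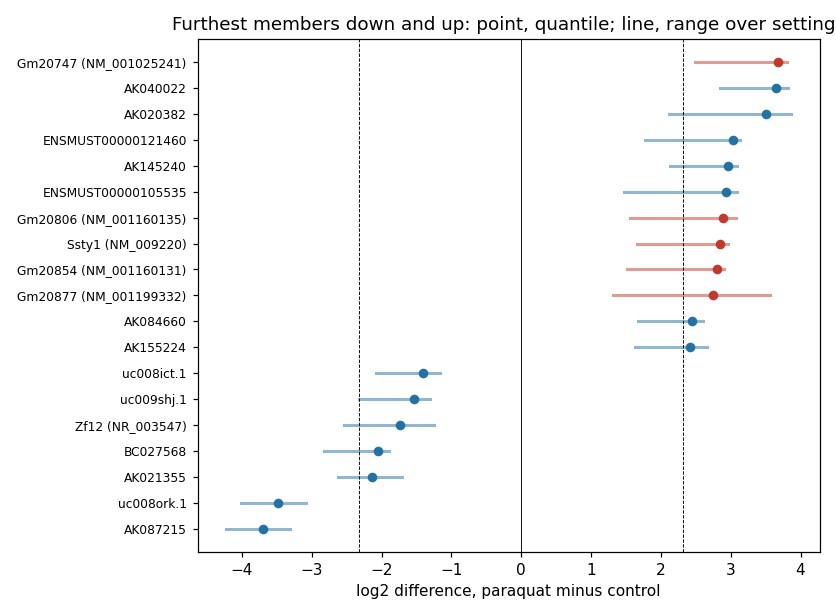
Log2 difference, paraquat minus control (x axis), of the 7 members furthest down and the 12 furthest up. The point is the quantile-normalized value and the line spans the lowest and highest value over the processing settings tried, with Y-linked genes in red and dashed lines at 5-fold. No line crosses 0.

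Among members detected on 1 array, AK039462 had the largest bound, with a control signal of 14.7 ± 4.14 and a paraquat signal of 477 ± 47.8, at least 41.9-fold higher. Over the settings tried, the log2 difference of AK039462 lay between 3.27 and 5.99, so this bound does not hold under all of them. The bounds in the other direction were small. CO432948 was at 109 ± 11.6 and 12.9 ± 3.68, at least 4.71-fold lower, BC094434 at 40.0 ± 5.56 and 4.70 ± 3.16, at least 1.78-fold lower, and BY389293 at 34.7 ± 5.20 and 11.1 ± 3.05, at least 1.55-fold lower.

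The members named by neighbouring UCSC identifiers, from uc009vf to uc009vh, were looked at after their values had been seen. Of these 11, 3 were detected on both arrays, 5 on the paraquat array only and 3 on neither. Of the 8 detected, 5 were at least 5-fold higher as measured, against 5.54% of all probes, and 2 by their bounds. All 5 were detected with paraquat only and had to differ, and 0 of the 3 measured on both arrays passed 5-fold. The dim uc009vhq.1 was at 9.62 ± 3.99 and 64.48 ± 7.10, at least 5.82-fold higher, and uc009vft.1 at 13.02 ± 4.08 and 60.7 ± 6.85, at least 5.49-fold higher. In the same run, uc009vfa.1 was one of the brightest members, at 186660 ± 18666 and 147929 ± 14793 (-0.28), and uc009vgv.1 was at 45393 ± 4539 and 96475 ± 9648, a difference of 1.06.

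Of the 8 brightest members, the 6 not yet named were Ensembl transcripts with differences between -0.26 and -0.05. Quantile normalization ties the top ranks of both arrays, and with the 75th percentile shift the same 6 lay between 0.78 and 1.04. ENSMUST00000118258, for example, was at 95199 ± 9520 and 103494 ± 10349 (-0.05), and ENSMUST00000148329 at 98585 ± 9858 and 90803 ± 9080 (-0.26). By type of name, 24 of 85 detected RefSeq NM members were at least 5-fold higher, as were 13 of 54 GenBank, 7 of 42 UCSC and 3 of 60 Ensembl members, against 5.54% of all probes. The Y-linked genes, all with NM names, supplied 17 of the 24, and the Ensembl share was 5.00%. These counts include members detected on the paraquat array only, which had to differ. Among members measured on both arrays, 7 of 61 NM, 6 of 42 GenBank, 0 of 34 UCSC and 2 of 53 Ensembl members were at least 5-fold higher. For all such probes the share was 2.77%.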

How the data were processed

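Per the labels, lung RNA was labelled by random priming and hybridised to 1-colour Agilent arrays designed on mm9, read with Feature Extraction 10.7.3.1. The authors deposited the processed intensity of each spot, background-subtracted and not normalized between arrays, and a table of processed log2 values, used here only as an alternative. The log2 of the intensity was averaged per probe without outlier spots and negative probes. Quantile normalization covered 59625 probes (Python 3.11.15, numpy 2.4.6; normexp with limma 3.58.1). A probe dim on 1 array has a bound, taken against the lowest detected signal of that array. The bound applies within quantile normalization and not under every alternative. Named are the 12 largest differences in each direction past 2-fold under each of the loess, normexp, 75th percentile and quantile settings, the 8 brightest members, 5 bounds in each direction and BC027568; members of the gene classes, of neighbour runs and of genes with several probes were chosen after their values were seen. Lists of lncRNA roles and of cell markers had 0 members. The members and lists were chosen with earlier results of these data known. Symbols came from the RefSeq table of GRCm38.p6. The alternatives were other normalizations, background corrections, filters and thresholds, and the local median of the 50 nearest probes of like signal. The script was tested on simulated data. With 1 array per group, the number of arrays limits the precision and no test was run.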

Additional observations from a re-analysis of the deposited data

How the results depend on the processing

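The 47 members at least 5-fold higher became 30 without normalization, 14 with quantile normalization over probes detected on both arrays (which drops members detected on 1), 5 with normexp, 8 without background subtraction, 6 in the authors' values (120 members), 15 when detection on both arrays was required, and 93 at 2-fold. No RefSeq NM member is in the authors' values, and NM members supplied 24 of the 47, so that drop is partly a change of members. The 6 lower became 15 without normalization, 14 at 3-fold and 23 at 2-fold, and 2 with quantile normalization over probes detected on both arrays, with normexp, without background subtraction, in the authors' values, with dim signals raised to the lowest detected signal and with detection on both arrays required. The median of 0.44 turned to -0.31 without normalization and stayed between 0.26 and 0.61 elsewhere. The other values of these counts were within 1.5 times the first. The 17 Y-linked members became 11 without normalization, 6 with quantile normalization over probes detected on both arrays, 1 with normexp and 2 without background subtraction. The share of all probes was not counted under the other normalizations and background corrections. Beyond the shift that normalization itself sets, the cause was not tested. No paired analysis was possible because each group has 1 array and no test was run, and for the same reason no array could be left out. Detection limits of 19.4 for the control and 13.2 for paraquat restrict what the dim members can show.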
